A study of Mus musculus with 6 samples.

Results

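The genes of the collagen chains were examined in mouse embryonic fibroblasts during reprogramming with and without activation of AKT. A gene was taken as a member when it was annotated as protein-coding and its symbol had the form Col, a number, a and a number. This rule found 44 genes among the 54331 genes of the table, of which 21803 are protein-coding. The rule reads only the symbol and the gene type and takes no measured value, although collagens were taken as the subject with earlier results of these data known. By the assembly that their chains form, 11 are fibrillar, 6 belong to the type IV collagens of basement membranes, 9 are FACIT collagens, 6 belong to the beaded filaments of type VI collagen, and the remaining 12 are in smaller classes.

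The comparison was made between 2 groups of 3 wells, OSKA + 4OHT and OSKA − 4OHT, all sampled at 10 dpi. The cells of both groups were fibroblasts of male E13.5 embryos from an Oct4-EGFP transgenic line on a mixed background of C57BL/6, DBA/2 and ICR, and several embryos were pooled. Both groups had been transduced with retroviruses for OCT4, SOX2 and KLF4 (OSK) and for AKT-MER (A), a myristoylated AKT fused to a modified estrogen receptor, which the ligand 4-hydroxytamoxifen (4OHT) activates. The OSKA − 4OHT wells received the vehicle, ethanol. Retroviral transduction need not reach every cell, and no sort is stated for these libraries. The study's scheme plates transduced cells into wells before the ligand is added, and nothing says that the wells came from separate cultures, so p-values measure only the spread between wells, which may be technical. Libraries with 4OHT but without AKT-MER were not analysed here. An effect of the ligand and an effect of AKT therefore cannot be told apart by these 6 libraries.

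Collagens are extracellular proteins built from 3 chains wound into a triple helix, and each chain is encoded by a gene of its own. Fibrillar collagens are cut outside the cell, assemble side by side into fibrils and are cross-linked by lysyl oxidases, which gives connective tissue its tensile strength. Type IV chains form the sheet-like network under epithelia, FACIT chains sit on the surface of fibrils, and type VI chains form beaded filaments close to cells. Fibroblasts are the main source of most of them, and the loss of the fibroblast programme together with a gain of epithelial features is a known early step of reprogramming.

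The authors' values are TPM, a transcript level that takes the length of each gene into account, so that levels can be compared between genes. They add up to 1000000 in each well, which leaves the sequencing depth unknown. The groups were compared with limma-trend, on log2(TPM + 0.5), in 15382 genes whose mean over the 6 wells reached 1 TPM, and a gene passed at a Benjamini-Hochberg adjusted p under 0.05. Fold changes are given on this log2(TPM + 0.5) scale as OSKA + 4OHT over OSKA − 4OHT, and they understate the change of genes with low levels. Over these genes the log2 fold change had a median of 0.14, which became 0.043 when the libraries were rescaled by trimmed means of their log ratios (TMM) and -0.0047 by quantile normalization, so changes should be read relative to this shift. Genes at 0 are described as listed at 0, because such values also occurred in 97 of 5708 genes whose median exceeded 20 TPM. Wells of a group correlated at 0.809 to 0.864 over genes, which are no independent replicates.

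Markers of fibroblasts and of other cell types were measured first, and the summed levels of several lists differed between the groups. Over all tested genes, 3.52% passed as higher and 1.97% as lower, which is the background for the calls of these lists. Of 12 fibroblast marker genes, all were tested, 1 passed as higher and 2 as lower. The summed level of the 12 was 5976 to 7243 TPM in the OSKA − 4OHT wells and 4056 to 4730 TPM in the OSKA + 4OHT wells. It was led by *Vim* (mean 3844 against 2668 TPM, adjusted p 0.163) and *S100a4* (1902 against 829 TPM). The sum of the other 10 differed in the opposite direction, with 633 to 789 TPM without and 925 to 1111 TPM with 4OHT. This higher sum was led by *Cd34* (178 against 435 TPM, adjusted p 0.0184), the gene that passed as higher, and *Thy1* (179 against 293 TPM, adjusted p 0.203). The direction was not shared by all of the 10. *Pdgfrb* passed as lower (log2 fold change -1.65, adjusted p 0.0113). *Prrx1* had 266 against 204 TPM without overlap and did not pass (adjusted p 0.111). Of all 12 markers, 5 had a log2 fold change above 0 and 7 below it. The summed level of 6 myofibroblast and smooth muscle markers was 892 to 1048 TPM without and 134 to 186 TPM with 4OHT, led by *Acta2* (652 against 116 TPM) and *Tagln* (287 against 30.0 TPM), and 3 of 5 tested genes passed as lower. The 10 pluripotent cell markers summed to 12.9 to 15.6 TPM and to 56.3 to 69.2 TPM, with 4 of 8 tested genes higher. Of these 8, 6 had a mean under 1 TPM without 4OHT and passed the filter through the OSKA + 4OHT wells only, 3 of the 4 that were higher among them. Among these 3, *Dppa5a* was listed at 0 in all OSKA − 4OHT wells and had a mean of 20.2 TPM with 4OHT. *Tdgf1*, the remaining gene that passed as higher, reached 1 TPM in both groups, with 1.60 against 9.99 TPM (adjusted p 0.0128). *Fgf4*, which also reached 1 TPM in both groups, had 10.8 and 14.2 TPM and did not pass (adjusted p 0.366). The 9 epithelial markers summed to 56.7 to 142 TPM and to 267 to 295 TPM, with 3 of 8 tested genes higher. These 3 were *Cdh1* (adjusted p 0.00471), *Krt8* (0.0265) and *Epcam* (0.0416). At the top by level were *Krt19* (42.9 against 118 TPM), which did not pass (adjusted p 0.0761), and *Epcam* (20.6 against 46.8 TPM). The 9 macrophage markers summed to 129 to 160 TPM and to 87.5 to 97.9 TPM, led by *Lyz2* (95.2 against 51.8 TPM, the only one that passed) and *Cd68* (14.9 against 19.0 TPM). Endothelial markers reached 21.8 to 30.8 TPM and 28.2 to 43.6 TPM, with *Tek* (14.3 against 21.9 TPM) and *Pecam1* (9.82 against 11.2 TPM) at the top and 0 of 3 tested genes past the test (1 at an unadjusted p under 0.05). Cartilage and bone cell markers reached 14.0 to 22.4 TPM and 38.1 to 127 TPM, led by *Alpl* (11.6, 3.17 and 11.9 TPM against 22.9, 108 and 20.2 TPM, so that OSKA + 4OHT replicate 2 set the upper end) and *Sox9* (2.18 against 9.69 TPM, the only one that passed), with *Matn1* and *Ibsp* listed at 0. Adipocyte markers reached 10.1 to 17.1 TPM without and 21.2 to 28.3 TPM with 4OHT, with *Lpl* (8.62 against 18.2 TPM) and *Pparg* (2.66 against 3.40 TPM) at the top and *Plin1*, *Adipoq*, *Cidec* and *Retn* listed at 0. Skeletal muscle markers reached 0.0219 to 5.01 TPM without and 4.10 to 11.4 TPM with 4OHT, with *Tnnt1* (2.15 against 6.48 TPM) and *Ckm* (0.0945 TPM against 0) at the top and *Myf5*, *Myog*, *Myod1* and *Pax7* listed at 0. The adipocyte and skeletal muscle lists had 3 genes and 1 gene tested, and none passed in limma (1 and 0 at an unadjusted p under 0.05). In such bulk samples, fewer cells of a type and less RNA per cell cannot be told apart, and the part of these shifts in the collagen results was not tested.

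Of the 44 collagen chains, 28 reached a mean of 1 TPM and were tested. Below, a gene is said to rise or fall only where it passed the test. Of the 28, 10 had a log2 fold change above 0 and 18 below it. One chain passed as higher in the OSKA + 4OHT group, *Col3a1*, the chain of type III collagen, which makes the fine fibrils of soft tissue. Chains of 6 different collagens passed as lower, namely *Col8a1*, *Col12a1*, *Col28a1*, *Col6a5*, *Col1a2* and *Col4a5*. The background over all tested genes was 3.52% higher and 1.97% lower, against 1 and 6 of 28 chains. With an absolute log2 fold change above 1 as a further condition, *Col3a1* and 4 of the 6 lower chains remained, *Col8a1*, *Col12a1*, *Col28a1* and *Col6a5*, against a background of 2.87% higher and 1.37% lower. The wells of the groups did not overlap for 5 chains on the higher side and for 14 on the lower side, where 18.1% and 10.0% of all tested genes did not overlap. The median log2 fold change of the 28 chains was -0.45, and an unadjusted p under 0.05 was found for 19 of them, where it was found for 21.3% of all tested genes. Of the 28, 5 chains (*Col4a3*, *Col4a6*, *Col6a5*, *Col10a1* and *Col23a1*) had a mean under 1 TPM in 1 of the groups and passed the filter through the other group only. Among the other 23, 1 chain passed as higher and 5 as lower, and the median was -0.07. Of the 13511 genes with both group means at or above 1 TPM, 3.43% passed as higher and 2.16% as lower, with a median of 0.13.

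**Figure D1:**
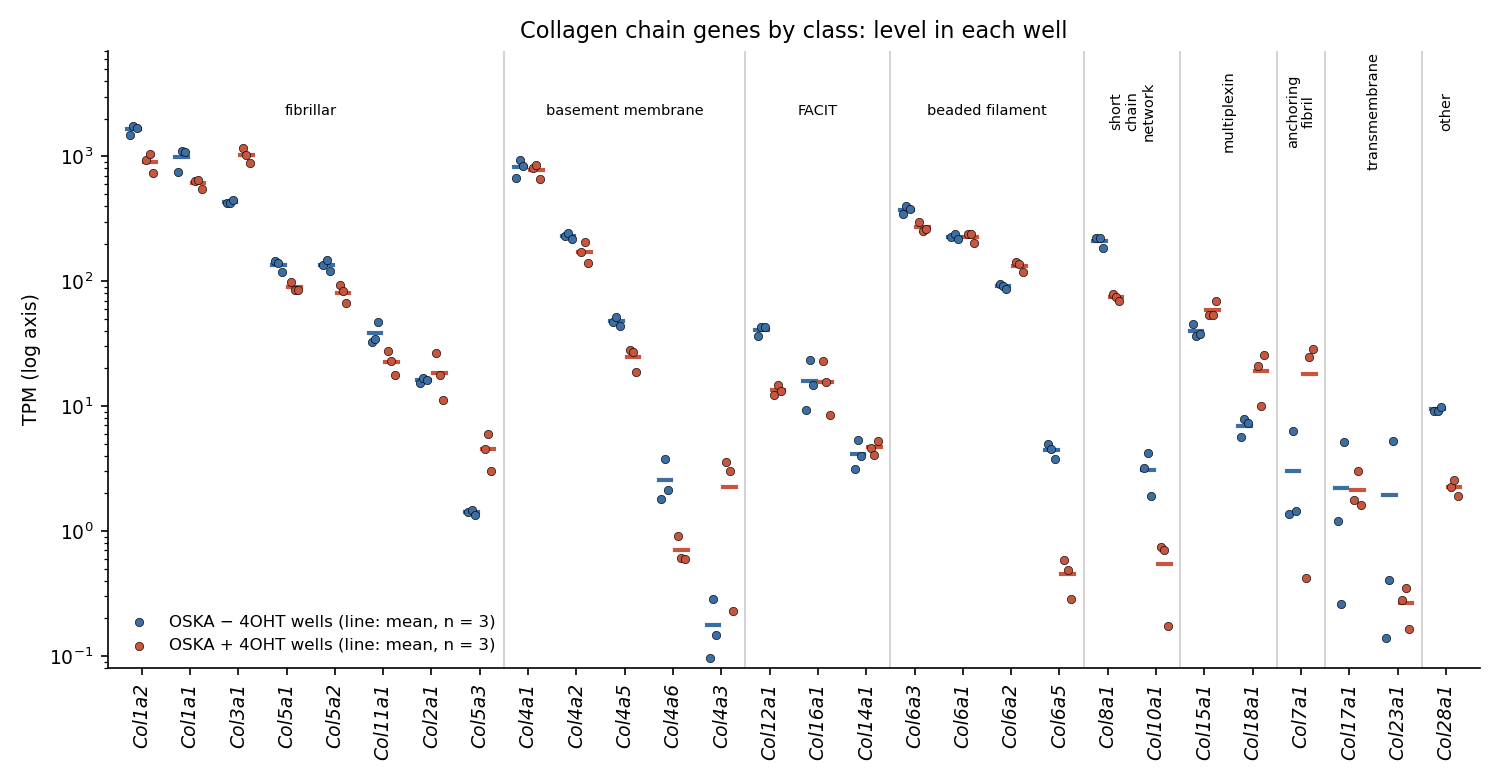
TPM of the 28 tested collagen chains in each of the 6 wells, on a log axis, grouped by class and ordered by mean level. Points are wells and lines are group means (n = 3). The OSKA + 4OHT wells of *Col3a1* lie at 885 to 1165 TPM, above all OSKA − 4OHT wells, whereas those of *Col8a1*, *Col12a1* and *Col28a1* lie below them.

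The stretch of 250 bases before the start of transcription is printed for the chains that passed, where the RefSeq start and the gene start of the GENCODE annotation coincide and no annotated exon lies in the stretch. This leaves the chain that rose and 3 of the 6 that fell. The sequences are from RefSeq on GRCm38.p6, each 5′ to 3′ on the strand of its gene. They lie at chr1:45311288-45311537 on the plus strand for *Col3a1*, and on the minus strand at chr16:57754738-57754987 for *Col8a1*, at chr6:8192618-8192867 for *Col28a1* and at chr9:105960644-105960893 for *Col6a5*. Capitals mark matches to the letters of a TATA box (TATAAA) and of a GC box (GGGCGG), read on either strand. These are the core letters bound by the TATA-binding protein and by SP1, and binding at these matches was not tested.
Col3a1: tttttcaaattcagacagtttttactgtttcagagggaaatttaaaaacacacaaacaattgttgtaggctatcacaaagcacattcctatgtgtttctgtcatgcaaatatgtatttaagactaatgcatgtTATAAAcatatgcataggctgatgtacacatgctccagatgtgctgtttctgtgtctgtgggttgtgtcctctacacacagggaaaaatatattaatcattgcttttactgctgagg
Col8a1: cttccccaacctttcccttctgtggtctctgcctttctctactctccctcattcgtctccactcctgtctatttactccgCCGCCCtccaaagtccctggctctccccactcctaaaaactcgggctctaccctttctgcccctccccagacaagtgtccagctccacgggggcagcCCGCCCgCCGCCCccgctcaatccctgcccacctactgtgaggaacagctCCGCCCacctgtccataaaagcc
Col28a1: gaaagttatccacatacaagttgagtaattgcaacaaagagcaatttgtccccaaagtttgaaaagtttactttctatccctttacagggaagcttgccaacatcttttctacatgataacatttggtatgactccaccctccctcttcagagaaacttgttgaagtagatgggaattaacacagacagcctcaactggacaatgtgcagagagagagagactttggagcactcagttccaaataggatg
Col6a5: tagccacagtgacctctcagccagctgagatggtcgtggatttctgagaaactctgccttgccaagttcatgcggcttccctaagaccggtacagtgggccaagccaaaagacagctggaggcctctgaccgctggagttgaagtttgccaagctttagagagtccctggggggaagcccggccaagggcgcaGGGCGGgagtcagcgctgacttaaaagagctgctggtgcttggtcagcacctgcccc
The *Col3a1* stretch holds the letters TATAAA 112 to 117 bases before the start and has 35.2% G and C. Whether they serve as a TATA box at that distance was not tested. That of *Col8a1* holds 4 GC boxes in 60.8% G and C, that of *Col6a5* holds 1 in 58.8%, and that of *Col28a1* holds none of the motifs in 40.4%. The table of promoters held 38 stretches for 35 of the 44 chains. A CCAAT box (CCAAT) was found in 13 of them (34.2%) against 33.9% of all 32851 promoters of that length, and a TATA box in 5 (13.2%) against 12.4%. A GC box was found in 22 (57.9%) against 32.7%. The motifs were searched on both strands, and a CCAAT box that shares its C letters with a GC box was counted for both. These matches describe the sequence only.

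The fibrillar chains include the most abundant collagen transcripts of the cultures, and their changes had different signs. Of 11 fibrillar chains, 8 were tested, *Col3a1* rose, *Col1a2* fell, and the class median was -0.62 on the log2 scale. In the OSKA − 4OHT wells 1 to 3, *Col3a1* (ENSMUSG00000026043, chromosome 1, 45311538 to 45349706) had 426, 426 and 448 TPM. In the OSKA + 4OHT wells 1 to 3 it had 1165, 1021 and 885 TPM. The wells of the control group lay close together, and the lowest well with 4OHT was nearly 2-fold above the highest without. The log2 fold change was 1.23 ± 0.12 (SE), with an adjusted p of 0.00582, and it held in all 6 fits that left out a well (adjusted p 0.0124 to 0.0361). Of the stretches of 50 bases in its longest transcript, 1.67% also occur in the annotated gene *Gm47302*.

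*Col1a1* and *Col1a2* encode the chains of type I collagen, the main fibril of skin, bone and tendon. *Col1a2* (chromosome 6, 4504814 to 4541544) had 1480, 1759 and 1684 TPM without 4OHT and 932, 1037 and 733 TPM with it. The groups did not overlap, and the chain fell by 0.88 on the log2 scale (SE 0.15, adjusted p 0.0285). With a well left out, the adjusted p was between 0.0450 and 0.0972, and it was under 0.05 only without OSKA + 4OHT replicate 3. With all wells, the call was also lost without the filter on low values (adjusted p 0.0588) and without the variance trend (0.0829), and it held under the other 5 alternatives without a block (0.0110 to 0.0309). *Col1a1* had 751, 1102 and 1083 TPM against 639, 643 and 548 TPM. Its groups did not overlap either, with a log2 fold change of -0.66 ± 0.17 (SE) and an adjusted p of 0.0843, and the adjusted p was 0.0378 without OSKA − 4OHT replicate 1, the well with the lowest value of its group.

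The chains of type V collagen, which is built into type I fibrils and limits their width, had lower means with 4OHT for *Col5a1* and *Col5a2* and a higher mean for *Col5a3*, and none of them passed the test. *Col5a1* had 145, 140 and 118 TPM against 98.1, 85.1 and 85.1 TPM, with a log2 fold change of -0.58 (adjusted p 0.0689). *Col5a2* had 136, 147 and 121 TPM against 93.6, 82.7 and 66.8 TPM, with -0.74 (adjusted p 0.0595). In each of these chains the groups did not overlap, and both passed under TMM scaling and under quantile normalization. *Col5a3* had 1.42, 1.48 and 1.35 TPM against 4.54, 5.94 and 3.02 TPM, again without overlap, with 1.34 (adjusted p 0.0937). Of the cartilage-type fibrillar chains, *Col11a1* had 32.8, 34.7 and 47.4 TPM against 27.4, 23.0 and 17.6 TPM, with -0.75 (adjusted p 0.136). *Col2a1* had 15.2, 16.7 and 16.3 TPM against 26.5, 17.7 and 11.2 TPM, so that its groups overlapped (log2 fold change 0.12, -0.045 under quantile normalization, adjusted p 0.870). *Col11a2*, *Col24a1* and *Col27a1* were under the mean of 1 TPM, and their highest single value was 3.36 TPM for *Col24a1* in OSKA + 4OHT replicate 2.

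*Col3a1* and *Col5a2* are neighbours on chromosome 1, 24614 bases apart and tail to tail. Their log2 fold changes were 1.23 and -0.74, and in neither of them did the groups overlap. A difference between the 2 genes was not tested as such.

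In the type IV collagens of basement membranes, *Col4a5* was the chain that fell, and the abundant chains *Col4a1* and *Col4a2* did not pass the test. Of 6 chains, 5 were tested, and the class median was -0.43. *Col4a1*, which with *Col4a2* makes the network found in nearly every basement membrane, had 672, 938 and 834 TPM against 811, 853 and 660 TPM. The groups overlapped, and the log2 fold change was -0.07 with a 95% confidence interval from -0.46 to 0.32 (adjusted p 0.846). It was 0.050 under quantile normalization (adjusted p 0.863). *Col4a2* had 229, 242 and 218 TPM against 170, 207 and 140 TPM, without overlap, with a log2 fold change of -0.43 (adjusted p 0.203).

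*Col4a5* (chromosome X, 141475385 to 141689234), a chain of the kidney and eye networks whose loss causes Alport syndrome, had 47.5, 52.1 and 44.1 TPM against 27.9, 27.3 and 18.7 TPM. The groups did not overlap, and the chain fell by 0.97 on the log2 scale (SE 0.20, adjusted p 0.0499), just inside the threshold. The adjusted p was over 0.05 in each of the 6 fits without a well, between 0.0795 and 0.141. With all wells, it was also over 0.05 without the filter (0.0660) and without the variance trend (0.0808), and under it in the other 5 alternatives without a block (0.0215 to 0.0497). *Col4a6* had 1.80, 3.74 and 2.12 TPM against 0.910, 0.609 and 0.594 TPM (log2 fold change -1.30, adjusted p 0.188). *Col4a3* had 0.0963, 0.286 and 0.146 TPM against 3.54, 3.02 and 0.229 TPM, so that only OSKA + 4OHT replicate 3 was within the range of the other group (1.70, adjusted p 0.323). *Col4a4* was not tested and stayed at or below 0.441 TPM.

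Type IV genes lie in head-to-head pairs. *Col4a1* and *Col4a2* on chromosome 8 overlap by 22 bases, less than the 50 bases of a read. *Col4a4* and *Col4a3* on chromosome 1 are 71 bases apart, and *Col4a6* and *Col4a5* on the X chromosome are 1308 bases apart. The fold changes of the pair on the X chromosome were -1.30 and -0.97, and those of the pair on chromosome 8 were -0.07 and -0.43.

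In the FACIT class, *Col12a1* fell and no other chain passed. Of 9 chains, 3 were tested, and the class median was -0.02. *Col12a1* (chromosome 9, 79598991 to 79718831) encodes type XII collagen, which lies on type I fibrils in dense connective tissue. It had 36.2, 43.2 and 42.7 TPM without 4OHT and 12.3, 14.8 and 13.1 TPM with it. Every well with 4OHT was under 15 TPM and every well without it above 36 TPM, a fall by 1.57 on the log2 scale (SE 0.17, adjusted p 0.00728) that held in all 6 fits without a well (0.0221 to 0.0445). *Col16a1* had 9.26, 23.4 and 14.6 TPM against 23.0, 15.5 and 8.44 TPM. The wells of each group spread widely and overlapped (log2 fold change -0.02, 95% confidence interval -1.14 to 1.09, adjusted p 0.986). *Col14a1* had 3.11, 5.35 and 3.96 TPM against 4.59, 4.09 and 5.30 TPM (0.17, -0.0031 under quantile normalization, adjusted p 0.773). The other 6 chains, *Col9a1*, *Col9a2*, *Col9a3*, *Col19a1*, *Col20a1* and *Col22a1*, were not tested. *Col9a2* and *Col19a1* were listed at 0 in every well, and the highest value of the others was 2.41 TPM for *Col9a3*.

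Among the beaded filament chains, the minor chain *Col6a5* fell, and the 3 main chains of type VI collagen did not pass. *Col6a1*, *Col6a2* and *Col6a3* encode the chains that assemble together in most tissues. *Col6a1* had 225, 238 and 218 TPM against 240, 238 and 201 TPM, overlapping (log2 fold change -0.0091, 0.019 under quantile normalization, 95% confidence interval -0.30 to 0.28, adjusted p 0.979). *Col6a2* had 95.4, 92.2 and 85.9 TPM against 142, 137 and 119 TPM, with 0.54 (adjusted p 0.0663). *Col6a3* had 343, 399 and 382 TPM against 295, 252 and 262 TPM, with -0.47 (adjusted p 0.0731). *Col6a2* and *Col6a3* thus lay without overlap on opposite sides, and *Col6a3* passed under TMM scaling.

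*Col6a5* (chromosome 9, 105856078 to 105960643), which can take the place of the *Col6a3* chain, had 4.93, 4.54 and 3.76 TPM without 4OHT and 0.583, 0.490 and 0.286 TPM with it. It fell by 2.37 on the log2 scale (SE 0.41, adjusted p 0.0283), the largest fall of the 28 chains at this pseudocount. At a pseudocount of 2 it was -1.38, behind *Col12a1* (-1.47), *Col8a1* (-1.46) and *Col28a1* (-1.44). It passed the filter through the OSKA − 4OHT wells only, and its adjusted p was 0.0625 to 0.109 in the 6 fits without a well, over 0.05 in each. Of the stretches of 50 bases in its longest transcript, 3.49% also occur in *Col6a6*, where reads could be split between the genes, and *Col6a6* stayed at or below 0.201 TPM. *Col6a4* and *Col6a6* were not tested. The class median was -0.24, and it was -0.0091 with a filter at a mean of 5 TPM, under which *Col6a5* was left out.

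**Figure D2:**
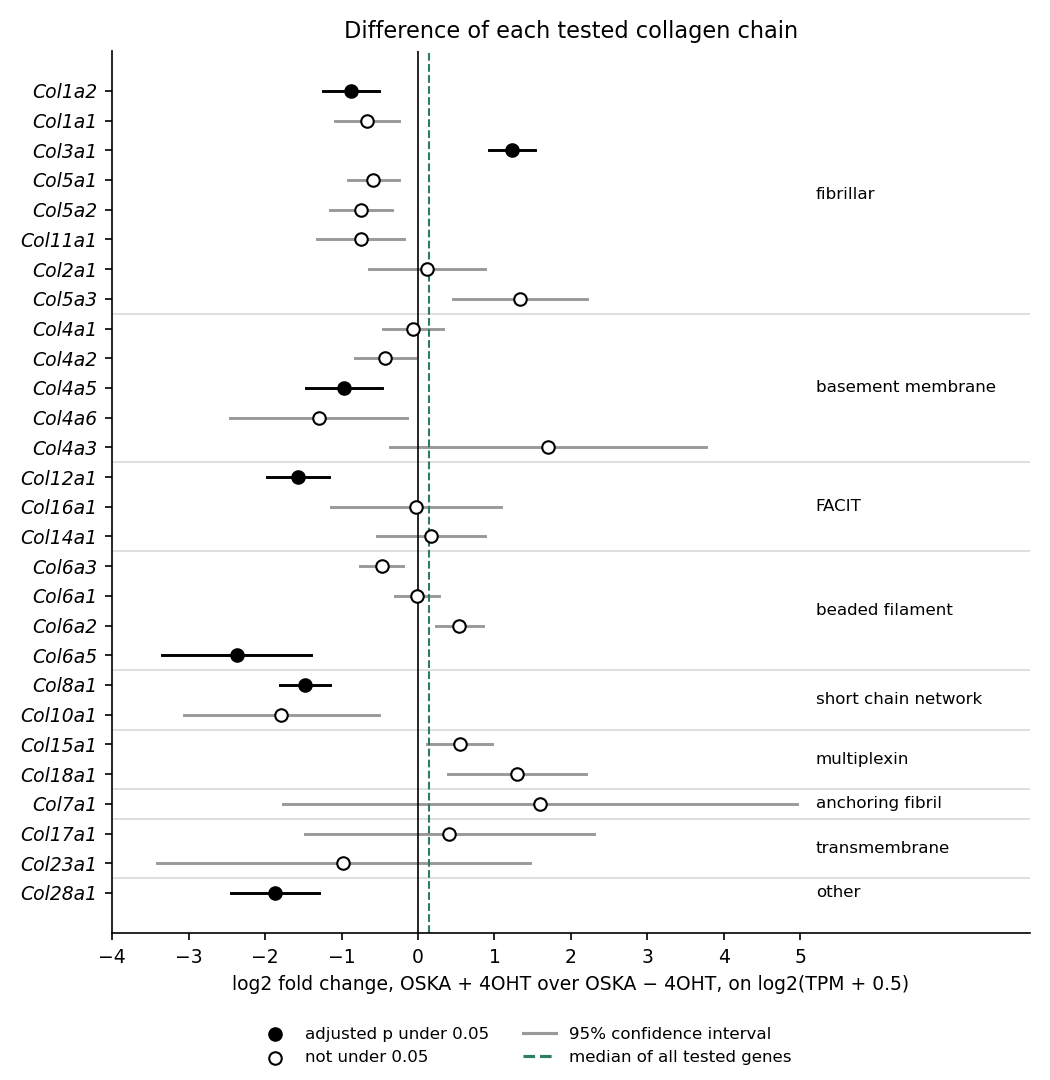
Log2 fold change of the 28 tested chains with its 95% confidence interval from limma, grouped by class. Filled points have an adjusted p under 0.05, and the dashed line is the median of all tested genes, 0.14. *Col3a1* at 1.23 is the single filled point on the right, and 6 filled points lie on the left, from -2.37 for *Col6a5* to -0.88 for *Col1a2*.

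Outside these 4 classes, *Col8a1* and *Col28a1* fell among 8 tested chains. *Col8a1* (chromosome 16, 57624258 to 57754737), a short chain that forms hexagonal networks and is made by vascular smooth muscle and endothelial cells, had 220, 223 and 184 TPM against 79.6, 74.9 and 68.9 TPM. The groups were far apart, with a fall by 1.48 on the log2 scale (SE 0.14, adjusted p 0.00470) that held in all 6 fits without a well (0.0152 to 0.0297). *Col28a1* (chromosome 6, 7997808 to 8192617), described mainly around peripheral nerves, had 9.19, 9.20 and 9.87 TPM against 2.24, 2.54 and 1.90 TPM. It fell by 1.87 on the log2 scale (SE 0.24, adjusted p 0.0118), and the adjusted p was 0.0558 without OSKA − 4OHT replicate 2 and 0.0562 without OSKA + 4OHT replicate 1. *Col10a1*, the short chain of growth plate cartilage, had 3.18, 4.21 and 1.91 TPM against 0.747, 0.706 and 0.173 TPM (-1.79, adjusted p 0.116).

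The multiplexins carry the precursors of endostatin-like fragments and sit at basement membranes, and both had higher means with 4OHT without passing. *Col15a1* had 45.6, 36.2 and 37.8 TPM against 53.2, 53.4 and 68.7 TPM (log2 fold change 0.54, adjusted p 0.145). *Col18a1* had 5.68, 7.90 and 7.34 TPM against 21.1, 10.0 and 25.7 TPM (1.29, adjusted p 0.112). In both of them the groups did not overlap. *Col7a1*, the chain of the fibrils that anchor the epidermis, had 1.36, 6.33 and 1.43 TPM against 0.424, 24.6 and 28.7 TPM. OSKA + 4OHT replicate 1 held the lowest value of all 6 wells and the other two wells of its group the highest, so the log2 fold change of 1.60 (adjusted p 0.563) became 3.22 without that well (adjusted p 0.0950), 0.84 without OSKA + 4OHT replicate 2 and 0.73 without OSKA + 4OHT replicate 3 (adjusted p 0.824 each).

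The transmembrane chain *Col17a1*, a part of the hemidesmosomes of epithelial cells, had 1.20, 0.258 and 5.15 TPM against 1.78, 3.04 and 1.61 TPM (adjusted p 0.804). Its log2 fold change of 0.41, a difference of mean logs, was opposite in sign to the difference of the mean levels, 2.20 TPM without and 2.14 TPM with 4OHT. *Col23a1* had 0.139, 0.408 and 5.27 TPM against 0.281, 0.350 and 0.163 TPM (-0.98, adjusted p 0.617), and without OSKA − 4OHT replicate 3 it was under the filter. *Col8a2*, *Col13a1*, *Col25a1* and *Col26a1* were not tested, with single values up to 1.39 TPM for *Col26a1*.

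The sum over all chains describes how much of the transcriptome was collagen. The 44 chains summed to 4944, 5960 and 5624 TPM in the OSKA − 4OHT wells and to 4883, 4848 and 3981 TPM in the OSKA + 4OHT wells. The means ± SD were 5509 ± 517 and 4571 ± 511 TPM (n = 3), or 0.551% and 0.457% of all transcripts, a ratio of 0.830. The groups did not overlap, but the gap between the lowest control well and the highest treated well was smaller than the SD of either group. An exact permutation test gave p = 0.1 (2-sided), the smallest value that 3 wells against 3 can reach, and 0.167 after adjustment over 5 sums. The fibrillar sum was 3379 ± 342 TPM against 2752 ± 350 TPM (n = 3, exact p = 0.1), and its highest treated well (2987 TPM) nearly reached the lowest control well (2989 TPM). The FACIT sum was 61.3 ± 11.8 TPM against 36.8 ± 6.18 TPM (n = 3, exact p = 0.1). Its difference was that of a single chain, *Col12a1*, with means of 40.7 against 13.4 TPM. The means of the other tested FACIT chains were 15.7 against 15.6 TPM for *Col16a1* and 4.14 against 4.66 TPM for *Col14a1*. The basement membrane sum was 1095 ± 142 TPM against 975 ± 140 TPM (n = 3, exact p = 0.4), and the beaded filament sum 698 ± 33.8 TPM against 630 ± 47.7 TPM (n = 3, exact p = 0.2). For these sums the wells overlapped in the basement membrane and beaded filament classes. Without OSKA + 4OHT replicate 3, the log2 ratio of the sum went from -0.27 to -0.18 over all chains, from -0.30 to -0.19 in the fibrillar class, from -0.15 to -0.094 in the beaded filament class and from -0.17 to -0.049 in the basement membrane class. In the basement membrane class it was -0.078 without OSKA − 4OHT replicate 2, -0.27 without OSKA − 4OHT replicate 1 and -0.26 without OSKA + 4OHT replicate 2. TMM scaling gave -0.28 for that class and -0.26 for the beaded filaments, and the fibrillar sum without *Col1a1*, *Col1a2* and *Col3a1* gave -0.59.

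The composition of this sum also differed between the groups. *Col3a1* made up 8.62%, 7.15% and 7.96% of all collagen chain transcripts without 4OHT and 23.9%, 21.1% and 22.2% with it. By mean level it was at rank 4 in the OSKA − 4OHT group and at rank 1 in the OSKA + 4OHT group. *Col1a2* went from 29.8% ± 0.245 to 19.6% ± 1.57 (SD, n = 3) and from rank 1 to rank 2, and *Col1a1* from 17.6% ± 2.16 to 13.4% ± 0.345 and from rank 2 to rank 4. *Col4a1* was at rank 3 in each group, with 14.7% ± 1.08 and 16.9% ± 0.580. *Col8a1* went from 3.82% ± 0.593 to 1.64% ± 0.0928. The top 8 chains of each group made up 89.1% and 89.9% of the sum, so the remaining chains contributed little to it. Shares of a sum are not independent of each other.

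**Figure D3:**
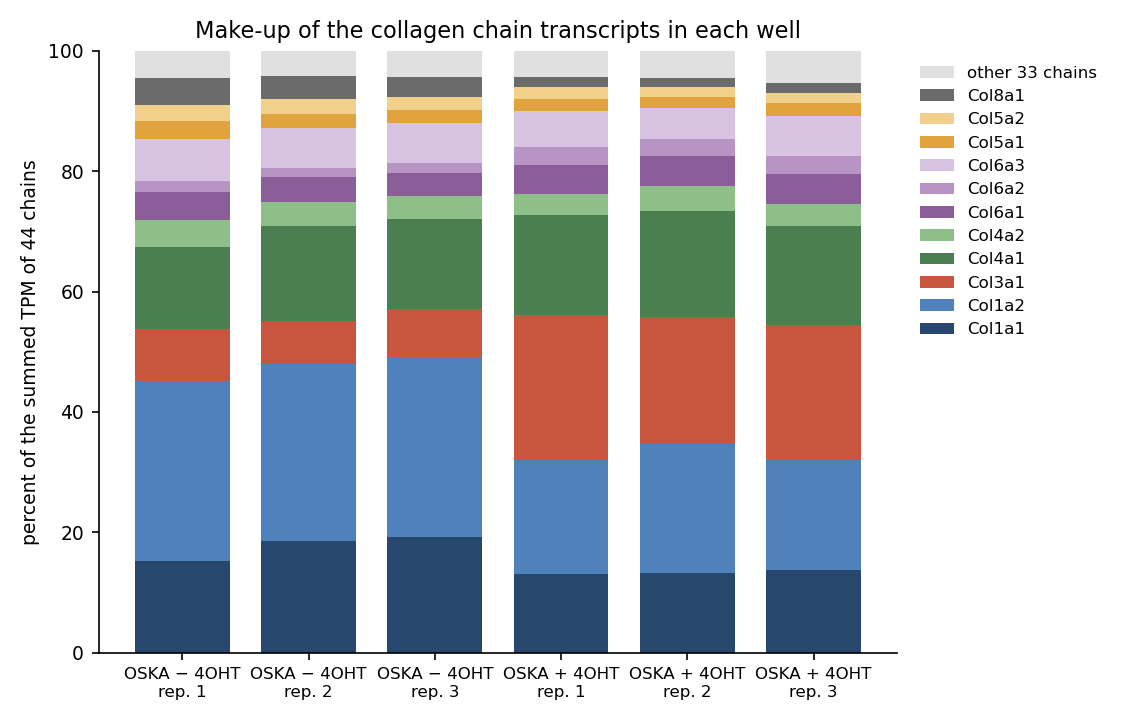
Share of each collagen chain in the summed TPM of the 44 chains, in percent, for each of the 6 wells. The 11 chains drawn in colour include the most abundant ones, and grey stands for the other 33. The share of *Col3a1* is between 7.15% and 8.62% in the OSKA − 4OHT wells and between 21.1% and 23.9% in the OSKA + 4OHT wells.

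The ratio of 2 chains within a well does not depend on the scaling of the libraries, since both values are divided by the same total. It was taken for 4 pairs of chains of a single collagen and for *Col3a1* over *Col1a1*, which belong to different collagens. For type I collagen, whose common form holds more *Col1a1* than *Col1a2* chains, the ratio *Col1a1*/*Col1a2* was 0.592 ± 0.0739 without and 0.684 ± 0.0637 with 4OHT (SD, n = 3), with overlapping wells (exact permutation p = 0.3). The ratio *Col3a1*/*Col1a1*, which sets type III against type I collagen, was 0.568, 0.387 and 0.413 in the OSKA − 4OHT wells and 1.82, 1.59 and 1.62 in the OSKA + 4OHT wells. *Col1a1* was thus above *Col3a1* in each control well and below it in each treated well. For *Col4a1*/*Col4a2* the ratios were 2.93, 3.88 and 3.83 against 4.77, 4.12 and 4.70. For *Col6a1*/*Col6a2* they were 2.36, 2.58 and 2.54 against 1.68, 1.74 and 1.68. In these 3 ratios the groups did not overlap, with an exact permutation p of 0.1 each and 0.167 after adjustment over the 5 ratios. *Col5a1*/*Col5a2* stayed near 1, with 0.997 ± 0.0624 against 1.12 ± 0.137 (SD, n = 3, exact permutation p = 0.3).

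**Figure D4:**
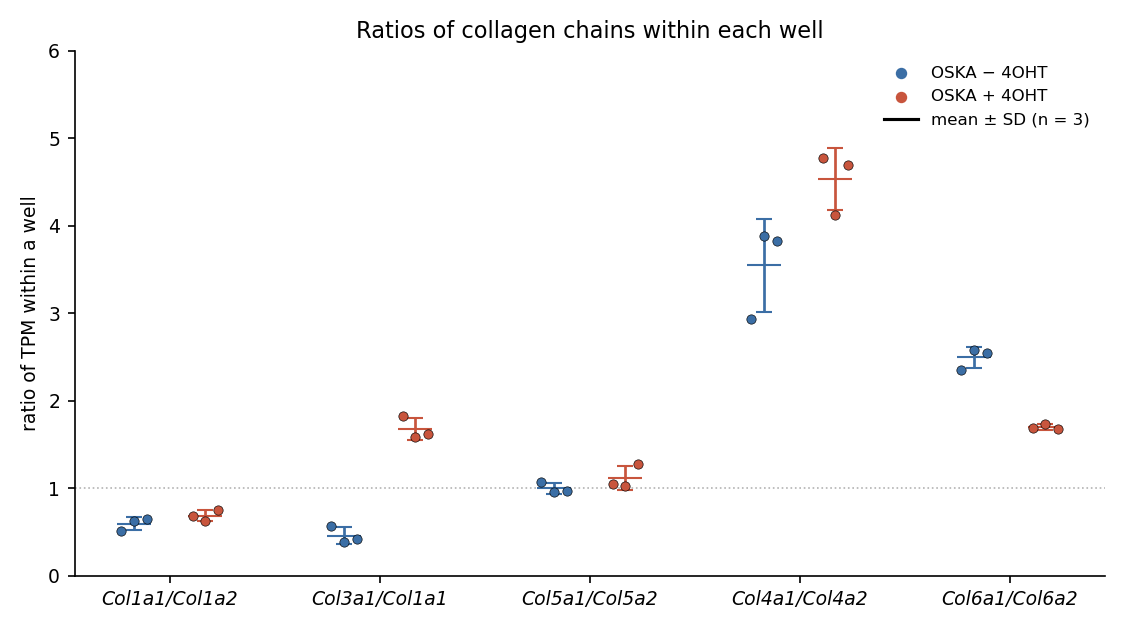
Ratio of the TPM of 2 collagen chains within each well, for 5 pairs. Points are wells, and bars show the mean and the SD (n = 3). *Col3a1*/*Col1a1* lies under 1 in the OSKA − 4OHT wells and between 1.59 and 1.82 in the OSKA + 4OHT wells, and *Col6a1*/*Col6a2* lies between 2.36 and 2.58 and between 1.68 and 1.74.

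The genes that modify, export, process, cross-link, bind and sense collagens were examined by 4 lists. Inside the cell, prolines and lysines of the chains are hydroxylated and the helix is folded by chaperones. Of 23 genes of this step 22 were tested, 1 passed as higher and 1 as lower, a count near the background of 3.52% and 1.97% of all tested genes, and the median log2 fold change was 0.19 beside 0.14 over all tested genes. The 2 genes were *P4ha1* and *P4ha3*, which with *P4ha2* encode alternative catalytic subunits of prolyl 4-hydroxylase, which stabilises the triple helix. *P4ha1* had 79.6, 69.1 and 64.3 TPM against 136, 147 and 111 TPM (log2 fold change 0.88 ± 0.16, adjusted p 0.0336). *P4ha3* had 19.3, 20.2 and 19.8 TPM against 4.92, 9.09 and 5.50 TPM (-1.58 ± 0.26, adjusted p 0.0261). *P4ha2* had 40.2, 49.8 and 21.1 TPM against 42.3, 52.7 and 28.4 TPM, with overlapping groups (0.19 ± 0.38, adjusted p 0.809). Of the 3 subunits, 1 thus passed as higher, 1 as lower and 1 in neither direction. For *P4ha1* the adjusted p was 0.0454 to 0.124 in the 6 fits without a well, under 0.05 only without OSKA + 4OHT replicate 3. Without the variance trend it was 0.0737. For *P4ha3* it was 0.0318 to 0.0896, under 0.05 only without OSKA + 4OHT replicate 2. *Serpinh1*, the collagen chaperone, was the most abundant gene of the list with means of 614 and 830 TPM and did not pass (adjusted p 0.359).

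Outside the cell, procollagens are trimmed by proteases and cross-linked by lysyl oxidases. Of 13 genes of this step 11 were tested, 3 fell, and the median was -0.28. The genes that fell were 3 of the 5 lysyl oxidases. *Lox* had 704, 635 and 525 TPM against 156, 152 and 158 TPM, a fall by 1.99 on the log2 scale (SE 0.13, adjusted p 0.00342). *Loxl1*, which also acts on elastin, had 28.4, 38.5 and 28.0 TPM against 12.5, 12.1 and 10.0 TPM (-1.41 ± 0.20, adjusted p 0.0174). *Loxl4* had 96.1, 87.9 and 89.3 TPM against 50.4, 39.8 and 27.2 TPM (-1.25 ± 0.24, adjusted p 0.0369). The groups did not overlap in any of them. *Lox* held in all 6 fits without a well (adjusted p 0.0118 to 0.0240). *Loxl1* was under 0.05 only without OSKA − 4OHT replicate 1 or 3 (0.0454 to 0.0685), and *Loxl4* was over 0.05 in each fit (0.0502 to 0.119) and without the variance trend (0.0677). The other lysyl oxidases did not pass, with log2 fold changes of -0.28 for *Loxl2* (adjusted p 0.340) and -0.23 for *Loxl3* (adjusted p 0.829). *Pcolce*, the enhancer of procollagen C-proteinase, had the highest mean of the list with 645 against 543 TPM (adjusted p 0.503), and *Tll2* was listed at 0 in all wells.

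Of 17 partners of type IV collagen in the basement membrane 16 were tested, *Lama1* rose, and *Lama2*, *Nid1* and *Sparc* fell, with a median of -0.02. *Lama1*, the laminin chain of the early embryo and of many epithelia, had 4.61, 4.24 and 4.39 TPM against 24.3, 20.5 and 15.6 TPM, a log2 fold change of 2.05 ± 0.23 (adjusted p 0.00822). *Lama2*, the laminin chain of muscle and nerve, had 18.0, 21.7 and 17.4 TPM against 8.35, 8.50 and 7.77 TPM (-1.16 ± 0.18, adjusted p 0.0222). The 2 laminin chains moved in opposite directions. *Nid1*, which links laminin to type IV collagen, had 288, 255 and 225 TPM against 131, 122 and 120 TPM (-1.03 ± 0.13, adjusted p 0.0118). *Sparc*, a secreted collagen-binding glycoprotein, had 4898, 4804 and 3720 TPM against 3004, 2962 and 2941 TPM (-0.58 ± 0.12, adjusted p 0.0461). In the fits without a well, the call of *Lama1* was lost without OSKA + 4OHT replicate 2 (adjusted p 0.0509) and held in the other 5. In the same fits, *Nid1* was under 0.05 in 3 of 6 (0.0263 to 0.0590; over it without OSKA − 4OHT replicate 2 and OSKA + 4OHT replicates 1 and 2), *Lama2* in none (0.0528 to 0.0847), and *Sparc* only without OSKA − 4OHT replicate 3 (0.0201 to 0.148). The call of *Sparc* was also lost with a pseudocount of 0.1, without the filter, under quantile normalization and without the variance trend (adjusted p 0.0366 to 0.178 over the alternatives that keep all wells and no block).

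Of 13 collagen receptors 9 were tested, 1 fell, and the median was -0.34. Among the 9, *Itga11* (2.40 against 0.0998 TPM, log2 fold change -2.26, adjusted p 0.0715) passed the filter through the OSKA − 4OHT wells only. Without it, the median lies between the values of *Itga1* (-0.34) and *Mrc2* (0.0058). *Itgb1*, the shared subunit of the collagen-binding integrins, had 858, 792 and 666 TPM against 490, 378 and 449 TPM, a fall by 0.81 on the log2 scale (SE 0.15, adjusted p 0.0321). The groups did not overlap, and in the fits without a well the adjusted p was 0.0471 to 0.105, under 0.05 only without OSKA − 4OHT replicate 3. The call was also lost without the filter, under quantile normalization and without the variance trend (0.0262 to 0.0899 over the alternatives that keep all wells and no block). *Ddr2*, a receptor kinase for fibrillar collagens, had 108, 117 and 105 TPM against 91.2, 89.2 and 64.4 TPM (adjusted p 0.209). *Gp6*, the platelet collagen receptor, was listed at 0 in all wells. The same background holds for the calls of the other 3 lists, which had 0 of 11, 1 of 16 and 0 of 9 genes higher and 3 of 11, 3 of 16 and 1 of 9 lower, in the order given.

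**Figure D5:**
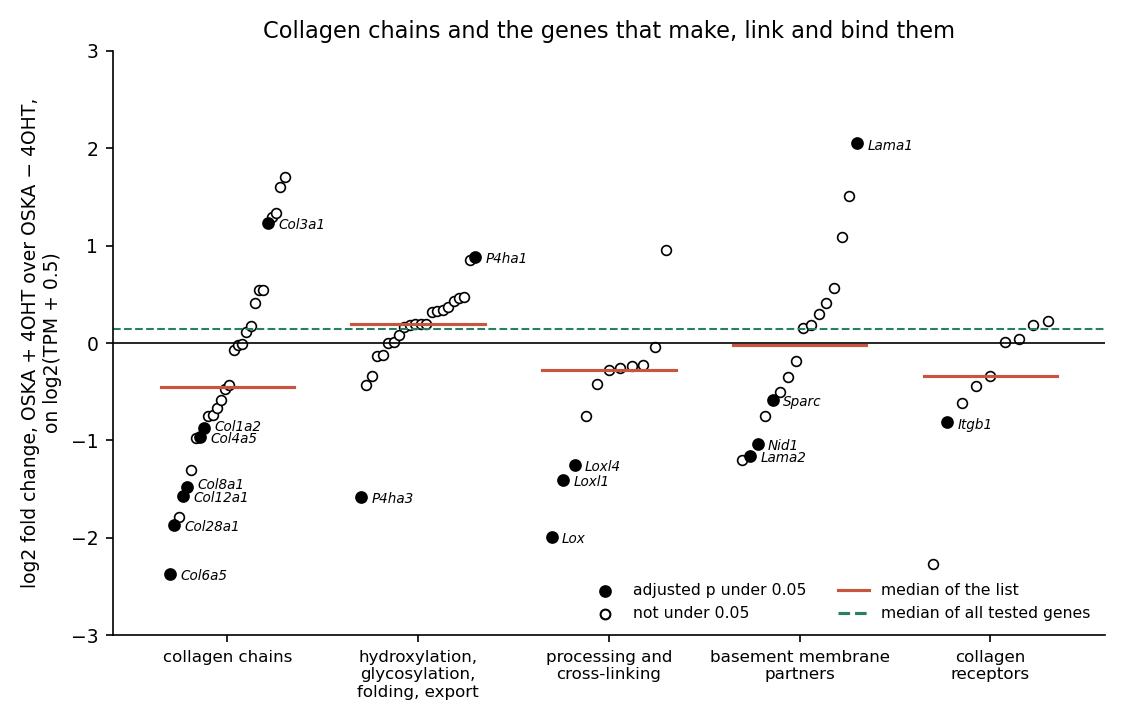
Log2 fold change of the tested collagen chains and of the tested genes of the 4 lists, ordered within each list by value. Filled points have an adjusted p under 0.05 and are named, red lines are medians, and the dashed line is the median of all tested genes. *P4ha1* and *P4ha3* stand on opposite sides, as do *Lama1* and *Lama2*, and the 3 lysyl oxidases that fell, *Lox*, *Loxl1* and *Loxl4*, lie between -1.99 and -1.25.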

How the data were processed

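RNA of 3 wells per group was measured at 10 dpi, in polyA libraries of a stranded kit with single-end reads of 50 bases. The authors trimmed the reads with Trim Galore, quantified them with Salmon and deposited TPM per gene and well. Versions, the annotation release and the use of strand are not given in the sources used here. The authors also deposited, from their own comparison with edgeR, log2 values (a fold change and an average level), a score (the F statistic) and a p-value, and none of these columns was used. Replicates were not pooled. Since TPM hold no depth, no interval for counting error is given.

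Symbols, biotypes and positions were those of GENCODE M21 (GRCm38), joined by Ensembl identifier, and 54097 of 54331 genes had a symbol. The release need not be the one the authors used. The deposited TPM were tested with limma 3.58.1 in R 4.3.3 (trend, no block) on log2(TPM + 0.5) over the genes whose mean reached 1 TPM, with Benjamini-Hochberg adjustment. Summed TPM and chain ratios were tested with exact 2-sided permutation tests in Python 3.11.15 with scipy 1.17.1. The fits were tested on simulated data. Chains with an adjusted p under 0.05 and the 2 most abundant of each class are described well by well, as are up to 4 genes that passed in each of the 4 pathway lists (hydroxylation to export, processing and cross-linking, basement membrane partners, receptors). Of each marker list (fibroblast, myofibroblast and smooth muscle, pluripotent, epithelial, endothelial, macrophage, cartilage and bone, adipocyte, skeletal muscle), the 2 most abundant genes and those listed at 0 are named. Other genes named were chosen after their values were seen. The members, lists and tests were chosen with earlier results of these data known. Shared stretches of 50 bases were counted between the longest transcript of each chain and all other annotated transcripts. Alternatives were other pseudocounts, filters, scalings and variance models, the replicate number as a block, and leaving out each well.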

Additional observations from a re-analysis of the deposited data

How the results depend on the processing

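With the replicate block, 31 genes were higher and 16 lower among all tested genes, against 542 and 303 without it, and 0 collagen chains were higher and 0 lower (limma, lowest adjusted p 0.0555, with 5 and 12 at an unadjusted p under 0.05). The pathway lists then gave 0 higher and 1 lower (4 and 12 unadjusted). Deviations from the group means correlated at 0.0235, 0.0341 and 0.0837 between same-numbered wells. Between differently numbered wells they correlated at -0.062 to 0.0327. All of these are small, and they cannot decide whether the numbers pair the wells, which the labels do not state. TMM scaling moved the share of higher calls among all genes from 64.1% to 51.3%, and quantile normalization to 49.7%. Quantile normalization turned the sign of *Col2a1* (-0.045), *Col4a1* (0.050), *Col6a1* (0.019) and *Col14a1* (-0.0031), none of which passed the test. Without the filter, the median of the FACIT class was 0.17 and of the beaded filaments 0.046, and with a mean of at least 5 TPM they were -0.79 and -0.0091, since other chains were tested. Without the filter, and separately without the variance trend, *Col1a2* and *Col4a5* no longer passed. The pathway lists had 1 gene higher without the trend.

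With a well left out, 112 to 318 genes were higher and 63 to 147 lower, fewer than with all wells, and 1 collagen chain was higher and 2 to 4 lower. Pathway genes ranged from 0 to 2 higher (0 without OSKA + 4OHT replicate 2, 4 unadjusted) and from 1 to 5 lower. The median of the basement membrane class ranged from -0.81 to -0.29 and that of the FACIT class from -0.35 to 0.30. Signs changed for *Col2a1* (-0.18 to 0.42), *Col4a1* (-0.20 to 0.044), *Col6a1* (-0.053 to 0.075), *Col16a1* (-0.35 to 0.35) and *Col17a1* (-0.27 to 1.18), none of which passed in those fits. *Col3a1*, *Col8a1* and *Col12a1* passed under every alternative tried except the replicate block. The cause of these changes was not tested, and with TPM alone the precision of low chains is unknown.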
